A study of Homo sapiens and Mus musculus with 27 samples.

Results

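The data describe 4T1 tumours treated with bortezomib plus TM, set against 4T1 tumours given vehicle. The comparison holds 6 of the 27 bulk RNA sequencing libraries of the series, 3 tumours in each group, chosen by their library names and titles. 4T1 is a mouse mammary carcinoma line, and here it was grown as tumours in Balb/c mice, an immunocompetent strain. The bortezomib+TM mice received 1 mg/kg bortezomib every 4 days together with 0.05 mg/ml TM in the drinking water. The labels give the abbreviation TM only. The vehicle mice carried the same tumours, and no tumours given bortezomib alone or TM alone were analysed here, so the parts of the combination cannot be told apart. Another arm of 3 tumours received 1 mg/kg bortezomib every 4 days with 5 mg/kg AMD3100, a CXCR4 antagonist, every 2 days. It entered the fit as a source of spread and is used for 1 comparison below. The title of the series puts proteasome inhibition together with CD8+ T cells, so T cell transcripts are described below. T cell receptor constant genes are not among them.

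Bortezomib blocks the chymotrypsin-like activity of the proteasome, which resides in the subunit encoded by Psmb5. Cultured cells exposed to it typically raise transcripts of proteasome subunits, heat shock proteins and targets of the stress factors ATF4 and NRF2. A 4T1 tumour also contains fibroblasts, vessels, macrophages and other leukocytes, and a bulk library sums the RNA of all of them. Fewer cells of a type and less RNA per cell cannot be told apart in such data. For that reason the marker genes of each cell type are described first, and the pathways are then described by their read counts, and those whose values turned on the cell mixture also relative to the markers of a cell type.

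The 6 libraries held between 38407536 and 47529071 reads assigned to genes, and between 17618 and 18064 genes with at least 1 read. Levels are given as CPM, the reads of a gene relative to the size of its library, after scaling with edgeR's trimmed mean of M values. Vehicle tumour 1 carries human and MDA-MB-231 entries in several of its label fields, whereas its title, library name and column name place it among the 4T1 vehicle tumours. It held 17632 mouse genes with a read, as many as the other tumours. The labels call the 3 tumours of a group biological replicates without naming the animals. All 12 epithelial markers of the 4T1 list were tested, and Krt8 alone reached between 572 and 1345 CPM. These markers are not particular to 4T1, so they cannot decide between the labels of vehicle tumour 1.

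No gene passed an adjusted p of 0.05. Of 25239 genes in the table, 15846 had enough reads to be tested, and edgeR's quasi-likelihood test with Benjamini-Hochberg adjustment called 0 of them, or 0%, with a smallest adjusted p of 0.887. At an unadjusted p under 0.05 there were 363 genes higher in the bortezomib+TM tumours, 2.29% of those tested, and 325 lower, 2.05%. All 3 bortezomib+TM tumours lay above all 3 vehicle tumours for 786 genes, 4.96% of those tested, and below them for 794, 5.01%. Scaling the libraries by the 12 epithelial markers moved the split to 691 higher, 4.36% of those tested, and 32 lower, 0.202%. The balance of the directions thus depends on the scaling. The median log2 change over all tested genes was 0.00, with a median standard error of 0.21. DESeq2 called 3 genes: the mast cell protease gene Mcpt2, the chemokine gene Ccl2 and the vitamin D hydroxylase gene Cyp24a1. limma-voom called 0. The 688 genes at an unadjusted p under 0.05 became 327 without vehicle tumour 2, 441 without bortezomib+TM tumour 2 and 1234 without bortezomib+TM tumour 3. The named changes below are therefore measurements that did not pass a test across all genes, and each list is read against the shares just given.

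**Figure D1:**
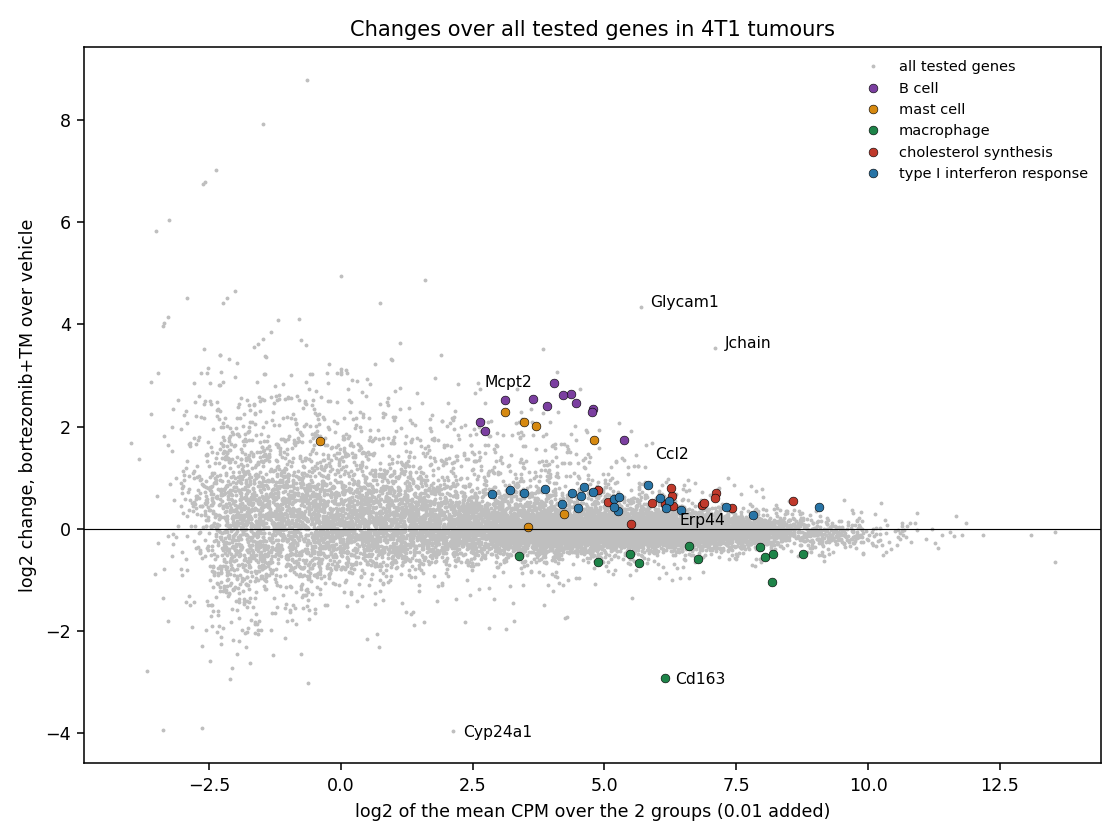
Each point is 1 of the 15846 tested genes, with its mean CPM over both groups on a log2 scale on the x axis and the log2 change of bortezomib+TM over vehicle on the y axis; coloured points are the tested members of 5 gene lists. B cell and mast cell markers lie above 0, macrophage markers below it, and no gene passed an adjusted p of 0.05.

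The 10 higher genes with the smallest p and no overlap between groups included 3 mast cell protease genes. Mcpt2 had 11.2, 10.0 and 8.86 CPM in the bortezomib+TM tumours, against 1.91, 1.26 and 1.56 CPM in the vehicle tumours. Its log2 change was 2.66 ± 0.51 (SE), and DESeq2 gave it an adjusted p of 0.000188. Ccl2, which encodes a chemoattractant for monocytes, had 54.6, 61.2 and 112 CPM in the bortezomib+TM tumours, against 38.3, 29.7 and 30.8 CPM in the vehicle tumours. Its log2 change was 1.21 ± 0.25, with an adjusted p of 0.0209 in DESeq2. Erp44, a thiol chaperone of the secretory pathway, had 85.8, 94.2 and 84.6 CPM in the bortezomib+TM tumours, against 69.0, 62.9 and 66.1 CPM in the vehicle tumours. Its groups were tight, and its log2 change was 0.42 ± 0.09.

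Irf9, the DNA-binding subunit of the type I interferon transcription factor, had 89.9, 88.1 and 93.1 CPM in the bortezomib+TM tumours, against 66.7, 55.1 and 73.0 CPM in the vehicle tumours. Grem1, a secreted antagonist of bone morphogenetic proteins, had 8.70, 9.97 and 11.7 CPM in the bortezomib+TM tumours, against 4.84, 3.09 and 6.39 CPM in the vehicle tumours. Mreg, or melanoregulin, had 8.75, 14.7 and 9.04 CPM in the bortezomib+TM tumours, against 4.93, 4.76 and 5.40 CPM in the vehicle tumours. The remaining genes of this set were Ly6c1, Mcpt1, Tpsab1 and the noncoding locus Gt(ROSA)26Sor, with log2 changes of 0.92, 2.19, 2.07 and 0.79.

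Among the 10 lower genes, Cyp24a1 showed the largest difference. It had 0.445, 0.511 and 0.623 CPM in the bortezomib+TM tumours, against 8.48, 15.4 and 0.684 CPM in the vehicle tumours. The high values came from vehicle tumours 1 and 2, while vehicle tumour 3 was as low as the treated ones, and the log2 change was -3.95 ± 0.89. Without vehicle tumour 3 it was the 1 gene that edgeR called, at an adjusted p of 0.0408. Fcgr3, an activating Fc receptor of macrophages and other myeloid cells, had 78.1, 74.3 and 75.2 CPM in the bortezomib+TM tumours, against 106, 100 and 101 CPM in the vehicle tumours. Lgmn, the lysosomal asparaginyl endopeptidase, had 464, 444 and 472 CPM in the bortezomib+TM tumours, against 576, 760 and 645 CPM in the vehicle tumours. Relative to the macrophage markers of the same tumour, both Fcgr3 and Lgmn overlapped between groups. Their log2 differences of bortezomib+TM over vehicle on that scale were 0.26 and 0.18. Tert, the catalytic subunit of telomerase, had 9.59, 7.75 and 8.28 CPM in the bortezomib+TM tumours, against 14.6, 13.4 and 12 CPM in the vehicle tumours. The other 6 were Cdk3, Anapc13, Romo1, Sema6b, Tbkbp1 and Ccdc120, with log2 changes of -0.76, -0.48, -0.50, -0.47, -0.44 and -0.68.

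The leading pattern of variation among the 6 tumours was lymphoid, and it did not follow the treatment. Ms4a1, which encodes CD20, had 59.7, 27.2 and 0.104 CPM in the bortezomib+TM tumours, against 0.142, 0.556 and 11.3 CPM in the vehicle tumours. B cell transcripts were thus present in bortezomib+TM tumours 1 and 2 and vehicle tumour 3, and close to 0 in the other 3 tumours. All 12 B cell markers had a positive log2 change with a median of 2.43, yet 0 had an unadjusted p under 0.05 and all 12 overlapped between groups. The first principal component of the 6 tumours carried 49.3% of the variance and placed bortezomib+TM tumours 1 and 2 and vehicle tumour 3 on 1 side. The gene with the largest loading on it was Glycam1.

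Glycam1, a mucin made by high endothelial venules of lymph nodes and also by mammary epithelium, split the tumours in the same way. It had 123, 172 and 0 CPM in the bortezomib+TM tumours, against 0.0944, 0.582 and 13.7 CPM in the vehicle tumours. Cxcl13, the B cell attracting chemokine of lymphoid follicles, had 12.3, 16.1 and 1.27 CPM in the bortezomib+TM tumours, against 0.897, 0.683 and 6.30 CPM in the vehicle tumours. The 5 tested lymph node stroma markers summed to 141, 205 and 1.82 CPM in the bortezomib+TM tumours, against 1.32, 1.42 and 23.4 CPM in the vehicle tumours. Plasma cell transcripts stood highest in bortezomib+TM tumour 1. There Jchain, the joining chain of secreted antibodies, reached 701 CPM, against 45.1 and 7.06 CPM in the other treated tumours and 13.2, 7.71 and 44.2 CPM in the vehicle tumours. In the AMD3100 arm the B cell markers summed to 1106, 11 and 614 CPM, so that arm was split in the same manner.

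**Figure D2:**
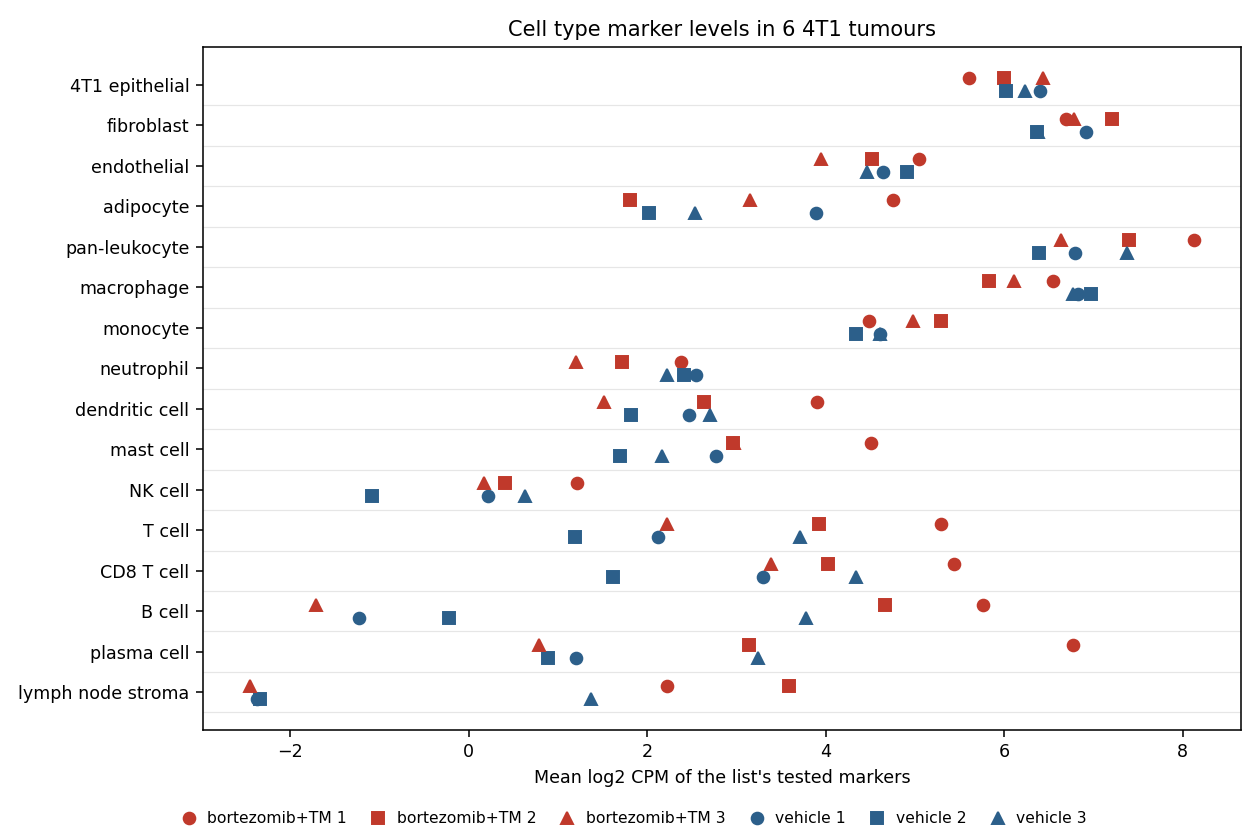
Each row is a cell type, and each point is the mean log2 CPM of its tested markers in 1 tumour, with the bortezomib+TM tumours in red above the vehicle tumours in blue. The B cell and lymph node rows separate bortezomib+TM tumours 1 and 2 and vehicle tumour 3 from the other 3 tumours, whereas the macrophage row separates the groups.

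T cell transcripts followed the same split. Cd3e, a chain of the T cell receptor complex, had 47.9, 21 and 7.19 CPM in the bortezomib+TM tumours, against 5.81, 2.78 and 15.4 CPM in the vehicle tumours. Cd8a, the coreceptor of cytotoxic T cells, had 60.8, 26.7 and 20.2 CPM in the bortezomib+TM tumours, against 17.9, 5.16 and 32.2 CPM in the vehicle tumours. Vehicle tumour 3 exceeded bortezomib+TM tumours 2 and 3, so the groups overlapped, and the log2 change of Cd8a was 0.96 ± 0.71. The helper coreceptor Cd4 had a log2 change of 2.00 ± 1.14, and Foxp3, the regulator of regulatory T cells, 1.32 ± 0.78. The 9 tested T cell markers had a median log2 change of 1.58, with 0 at an unadjusted p under 0.05. With the B cell marker level as a covariate that median was 0.61. The pan-leukocyte gene Ptprc, which encodes CD45, had 397, 181 and 70.0 CPM in the bortezomib+TM tumours, against 96.8, 69.2 and 158 CPM in the vehicle tumours.

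Of the 10 cytotoxic effector genes 9 overlapped between the groups. Gzmb, the protease granzyme B, had 12.5, 14.1 and 19.4 CPM in the bortezomib+TM tumours, against 20.6, 8.42 and 16.2 CPM in the vehicle tumours. Prf1, the pore-forming protein perforin, had 14.3, 13.3 and 18.6 CPM in the bortezomib+TM tumours, against 20.4, 4.76 and 17.8 CPM in the vehicle tumours. Their log2 changes were 0.02 ± 0.31 and 0.11 ± 0.44. Ifng, the cytokine interferon gamma, had 1.66, 1.34 and 2.65 CPM in the bortezomib+TM tumours, against 1.1, 0.734 and 1.54 CPM in the vehicle tumours, with a log2 change of 0.73 ± 0.43. Of the 10 genes of the list, 1 had an unadjusted p under 0.05, higher, against 2.29% of all tested genes. This was Gzma, with 5.90, 2.64 and 2.23 CPM in the bortezomib+TM tumours, against 1.13, 1.92 and 1.56 CPM in the vehicle tumours. Vehicle tumour 2 was the lowest of the 6 in Cd8a, Gzmb, Prf1 and Ifng.

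Set against the T cell markers of the same tumour, Gzmb and Prf1 were lowest in bortezomib+TM tumour 1, which had the most T cell transcripts. Gzmb stood at -1.64, -0.10 and 2.06 on the log2 scale relative to the mean of the T cell markers in the bortezomib+TM tumours, against 2.25, 1.89 and 0.31 in the vehicle tumours. Cd8a relative to the same markers stood at 0.64, 0.82 and 2.11 in the bortezomib+TM tumours, against 2.05, 1.19 and 1.29 in the vehicle tumours. The groups overlapped for all 14 genes examined in this way, which include Pdcd1, Lag3, Ctla4 and Ccl5. An exact two-sided permutation test of 3 tumours against 3 cannot go below p = 0.1, so no test was made of such single values.

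Mast cell transcripts were higher in the bortezomib+TM tumours without overlap for most of their protease genes. Cpa3, the mast cell carboxypeptidase, had 26.9, 5.37 and 11 CPM in the bortezomib+TM tumours, against 4.42, 1.21 and 3.27 CPM in the vehicle tumours. Tpsb2, a tryptase, had 72.3, 27.9 and 28.2 CPM in the bortezomib+TM tumours, against 18.3, 8.40 and 12.1 CPM in the vehicle tumours. Cma1, a chymase, had 33.4, 9.5 and 11 CPM in the bortezomib+TM tumours, against 6.89, 2.10 and 3.74 CPM in the vehicle tumours. These genes and the chymase gene Mcpt4 were the 4 of 7 markers with an unadjusted p under 0.05, all higher, against 2.29% of all tested genes. The median log2 change of the 7 was 1.73, against 0.00 over all tested genes.

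Bortezomib+TM tumour 1 was the highest of the 6 for 6 of the 7 mast cell markers. Without it the median was 1.12, and 4 members still had an unadjusted p under 0.05. The 3 markers that mast cells share with other cells or that were near the limit of detection overlapped between groups. Kit, the stem cell factor receptor, had a log2 change of 0.28 ± 0.41, and Hdc, the histamine-forming enzyme, 0.03 ± 0.25. Relative to the mean of the mast cell markers, Mcpt2 still differed without overlap, at -1.02, 0.38 and 0.18 in the bortezomib+TM tumours, against -1.80, -1.30 and -1.48 in the vehicle tumours. Tpsab1 and Tpsb2, and the Mcpt genes among themselves, are close relatives whose reads the counting may have shared. When the 3 tumours holding B cell markers were left out, the median was 1.08 and 1 member had an unadjusted p under 0.05. That fit holds bortezomib+TM tumour 3 alone, which is assumed to vary like the other groups. Relative to the pan-leukocyte markers the mast cell markers overlapped, at -3.62, -4.44 and -3.67 on the log2 scale in the bortezomib+TM tumours, against -4.03, -4.70 and -5.22 in the vehicle tumours.

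Macrophage transcripts were lower in the bortezomib+TM tumours. All 12 macrophage markers had a negative log2 change, with a median of -0.54, and 9 had an unadjusted p under 0.05, against 2.05% of all tested genes in that direction. Cd68, a lysosomal protein of macrophages, had 87.1, 82.2 and 89.9 CPM in the bortezomib+TM tumours, against 96.2, 120 and 110 CPM in the vehicle tumours. Ms4a7 had 27.9, 20.2 and 20.6 CPM in the bortezomib+TM tumours, against 28.7, 36.6 and 41.7 CPM in the vehicle tumours. Trem2, a lipid-sensing receptor of tumour macrophages, had 31.3, 37.7 and 42.4 CPM in the bortezomib+TM tumours, against 47.6, 46.4 and 63.8 CPM in the vehicle tumours. These 3 were among the 4 markers that lay below all vehicle tumours without overlap, against 5.01% of all tested genes. Averaged over the 12 markers, the bortezomib+AMD3100 tumours stood at 6.35, 6.45 and 6.09 log2 CPM, against 6.83, 6.97 and 6.77 in the vehicle tumours. The lower level was thus not particular to bortezomib+TM.

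The complement genes C1qa and C1qb and the receptor Csf1r overlapped because bortezomib+TM tumour 1 reached the range of the vehicle tumours. C1qa had 447, 278 and 359 CPM in the bortezomib+TM tumours, against 543, 395 and 591 CPM in the vehicle tumours. The 2 scavenger receptors of the list varied widely among the vehicle tumours. Cd163 had 21.1, 9.08 and 19.3 CPM in the bortezomib+TM tumours, against 62.6, 300.2 and 13 CPM in the vehicle tumours, so that vehicle tumour 3 lay within the treated range. Mrc1, which encodes CD206, had 277, 105 and 184 CPM in the bortezomib+TM tumours, against 321, 651 and 199 CPM in the vehicle tumours. The median over the 12 macrophage markers was -0.79 without bortezomib+TM tumour 1 and -0.39 without bortezomib+TM tumour 2, with 11 and 3 members at an unadjusted p under 0.05. Without bortezomib+TM tumour 3 or any 1 vehicle tumour, between 4 and 6 members had such a p. With the 3 tumours holding B cell markers left out it was -0.62, with 7 members. Scaling the libraries by the epithelial markers moved the median of all tested genes to 0.24 and left the macrophage markers at -0.27, with 1 member at an unadjusted p under 0.05. Relative to the pan-leukocyte markers they stood at -1.58, -1.57 and -0.53 in the bortezomib+TM tumours, against 0.03, 0.58 and -0.61 in the vehicle tumours, and overlapped through vehicle tumour 3.

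**Figure D3:**
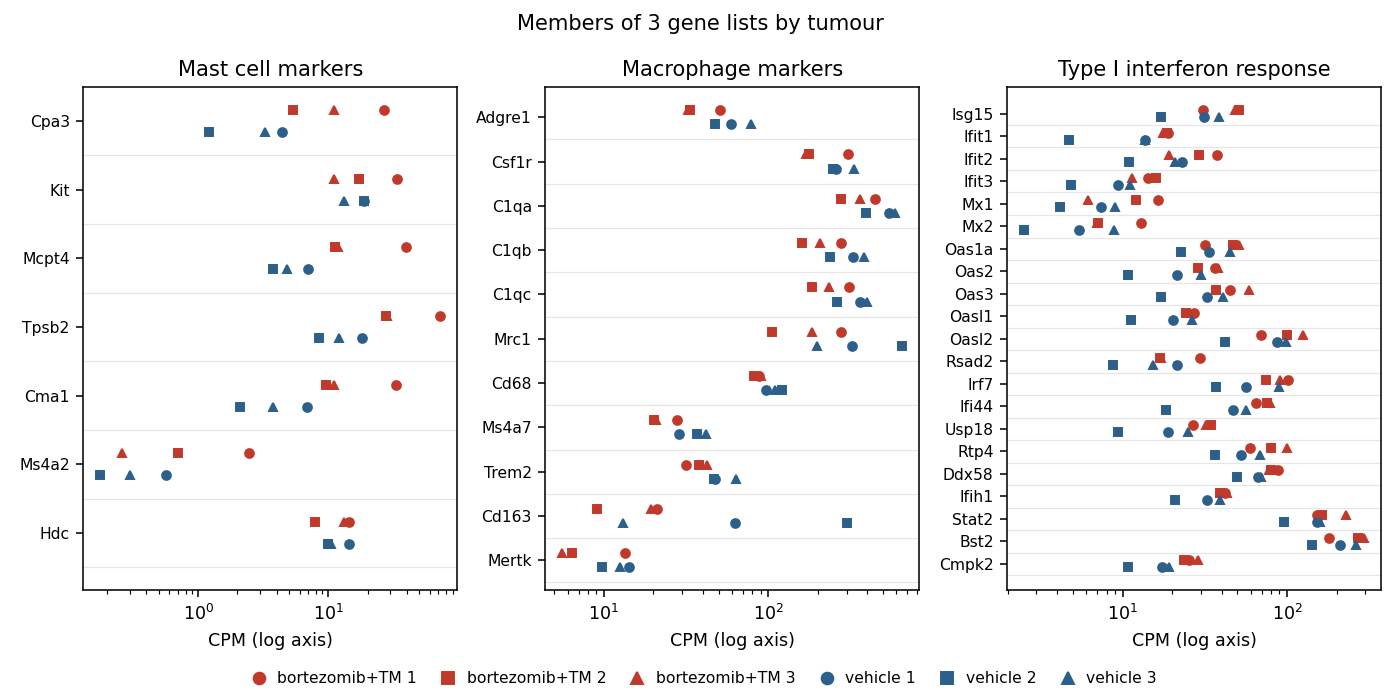
Each row is a gene, with its CPM in each tumour on a log axis, bortezomib+TM tumours in red above vehicle tumours in blue. Mast cell proteases lie higher and macrophage markers lower in the bortezomib+TM tumours, and vehicle tumour 2 is the lowest of the 6 for each type I interferon response gene shown.

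Other myeloid lists gave mixed differences. S100a8, a calcium-binding alarmin of neutrophils, had 12.4, 11.5 and 11.5 CPM in the bortezomib+TM tumours, against 27.1, 25.3 and 15.3 CPM in the vehicle tumours. Its partner S100a9 had 24.8, 21.6 and 25.7 CPM in the bortezomib+TM tumours, against 50.9, 46.1 and 31.0 CPM in the vehicle tumours. Of the 12 neutrophil markers, 3 had an unadjusted p under 0.05, all lower, against 2.05% of all tested genes, and the median log2 change was -0.58. Without overlap, 4 of the 12 lay below the vehicle tumours and 1 above, against 5.01% and 4.96% of all tested genes. The defining marker Ly6g stayed below 1 CPM in each of the 6 tumours, and Mmp8 lay above the vehicle tumours, so the members did not all move together. Relative to the pan-leukocyte markers the neutrophil list stood at -5.75, -5.68 and -5.44 in the bortezomib+TM tumours. The vehicle tumours stood at -4.25, -3.98 and -5.16 on that log2 scale, without overlap. By themselves the neutrophil markers overlapped, at 2.38, 1.72 and 1.20 log2 CPM in the bortezomib+TM tumours, against 2.55, 2.41 and 2.22 in the vehicle tumours. The pan-leukocyte level used as the reference was highest in bortezomib+TM tumour 1, at 8.13 log2 CPM. Among 6 monocyte markers, Plac8 differed without overlap, at 31.4, 44.2 and 26.7 CPM in the bortezomib+TM tumours, against 15.3, 12.1 and 24.8 CPM in the vehicle tumours. The monocyte markers relative to the macrophage markers stood at -2.06, -0.54 and -1.13 on the log2 scale in the bortezomib+TM tumours, against -2.22, -2.63 and -2.16 in the vehicle tumours, which did not overlap. The macrophage markers were themselves lower in all 3 bortezomib+TM tumours. By themselves the monocyte markers averaged 4.48, 5.29 and 4.97 log2 CPM in the bortezomib+TM tumours. They averaged 4.61, 4.34 and 4.61 log2 CPM in the vehicle tumours, and the groups overlapped. The 9 dendritic cell markers and the 6 tested NK cell markers had 0 members at an unadjusted p under 0.05.

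Epithelial and stromal markers overlapped between the groups for most genes. The epithelial markers averaged 5.6, 6.0 and 6.44 log2 CPM in the bortezomib+TM tumours, against 6.4, 6.01 and 6.23 log2 CPM in the vehicle tumours. Their median log2 change was -0.18. It was -0.53 without bortezomib+TM tumour 3, -0.28 without vehicle tumour 2, -0.27 without vehicle tumour 3 and -0.04 without bortezomib+TM tumour 1. With neutrophil or macrophage markers as a covariate it was -0.54 and -0.51, and without the 3 tumours holding B cell markers 0.21. Krt7 was the 1 of 12 without overlap, against 5.01% of all tested genes in that direction. Its level was 44.8, 81.6 and 124 CPM in the bortezomib+TM tumours, against 168, 132 and 153 CPM in the vehicle tumours. Epcam, the epithelial adhesion molecule, had 17, 26 and 47.5 CPM in the bortezomib+TM tumours, against 54.4, 18.7 and 22.9 CPM in the vehicle tumours. Bortezomib+TM tumour 1 had the lowest epithelial level of the 6 and the highest leukocyte level. Of 12 fibroblast markers, Dcn and Fap lay above the vehicle tumours without overlap, against 4.96% of all tested genes. Their log2 changes were 0.91 ± 0.37 and 0.87 ± 0.32. Col1a1, the main chain of type I collagen, had 678, 2762 and 1582 CPM in the bortezomib+TM tumours, against 1957, 1057 and 1604 CPM in the vehicle tumours. The 12 endothelial and 7 adipocyte markers had 0 members at an unadjusted p under 0.05.

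The cholesterol synthesis genes were the pathway list with the largest share of members at an unadjusted p under 0.05 among those described here. They encode the enzymes that build cholesterol from acetyl-CoA, together with regulators such as the sterol sensor partner Insig1, and they are classical targets of the transcription factor SREBP2. All 14 had a positive log2 change, with a median of 0.51, and 10 had an unadjusted p under 0.05, against 2.29% of all tested genes. Hmgcs1, the synthase that makes HMG-CoA, had 118, 174 and 220 CPM in the bortezomib+TM tumours, against 112, 97.6 and 105 CPM in the vehicle tumours. Its log2 change was 0.70 ± 0.23. Idi1, the isopentenyl diphosphate isomerase, had 25.9, 36.4 and 48.2 CPM in the bortezomib+TM tumours, against 24.4, 20.2 and 20.8 CPM in the vehicle tumours. Msmo1, a sterol demethylating enzyme, had the largest log2 change of the 14, 0.80 ± 0.29, and Dhcr7, the last enzyme of 1 branch, the smallest, 0.09 ± 0.18.

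In each of the 14 genes bortezomib+TM tumour 3 was the highest of the 6, and bortezomib+TM tumour 1 lay at or near the vehicle tumours. In 4 of the 14 the groups did not overlap, namely Hmgcs1, Idi1, Cyp51 and Insig1, against 4.96% of all tested genes in that direction. Without bortezomib+TM tumour 3 the median of the cholesterol synthesis genes was 0.28 and 0 members had an unadjusted p under 0.05. Without bortezomib+TM tumour 1 it was 0.71, with 13 members, and without the 3 tumours holding B cell markers it was 0.93, with 13 members. Leaving out bortezomib+TM tumour 2, vehicle tumour 1 or vehicle tumour 2 kept the median between 0.47 and 0.55 and left 4, 4 and 2 members.

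The order of the treated tumours in these genes was also the order of their epithelial marker levels, tumour 1 the lowest and tumour 3 the highest. Each gene was therefore also expressed relative to the mean log2 CPM of the 12 epithelial markers in the same tumour. On that scale the cholesterol synthesis genes averaged 0.59, 0.67 and 0.63 in the bortezomib+TM tumours, against -0.20, 0.03 and -0.03 in the vehicle tumours. The difference of 0.70 exceeded the spread within groups, which was 0.04 in the bortezomib+TM tumours and 0.12 in the vehicle tumours (SD, n = 3 each). The bortezomib+AMD3100 tumours averaged 0.66, 0.70 and 0.59, so the higher level was not particular to bortezomib+TM. On the same scale 13 of the 14 genes lay above all vehicle tumours in all 3 treated tumours, with Dhcr7 the exception, whereas 4.23% of all tested genes did so. Idi1 stood at -0.90, -0.81 and -0.84 in the bortezomib+TM tumours, against -1.79, -1.67 and -1.85 in the vehicle tumours.

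The choice of markers set how clear this separation was. With the 8 epithelial markers that are not keratins the difference was 0.62, and with the 4 keratins alone 0.85, without overlap in either case and with 13 of the 14 genes above the vehicle tumours. Relative to fibroblast, endothelial or pan-leukocyte markers the groups overlapped, with differences of 0.16, 0.66 and -0.04. Relative to the macrophage markers, which were themselves lower in the treated tumours, the difference was 1.19 without overlap, with 11 of the 14 genes above the vehicle tumours. Scaling the libraries by the epithelial markers moved the median log2 change of all tested genes to 0.24 and that of the cholesterol synthesis genes to 0.69. In fits with the marker level of 1 cell type as a covariate, the median of the cholesterol synthesis genes was 0.60 with B cell, 0.66 with T cell, 0.65 with 4T1 epithelial and 0.56 with fibroblast markers, with between 8 and 13 members at an unadjusted p under 0.05. With mast cell markers, a covariate chosen after seeing the data, it was 0.85, with 13 members. With neutrophil or macrophage markers as the covariate it was 0.18 and 0.16, with 0 members. The neutrophil level overlapped between the groups, at 2.38 log2 CPM in bortezomib+TM tumour 1 and 2.22 in vehicle tumour 3. Why the median was lower with that covariate was not tested. The macrophage level separated the groups by itself, at 6.55, 5.83 and 6.11 log2 CPM in the bortezomib+TM tumours, against 6.83, 6.97 and 6.77 log2 CPM in the vehicle tumours, so that its part and that of the treatment cannot be told apart in such a fit.

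**Figure D4:**
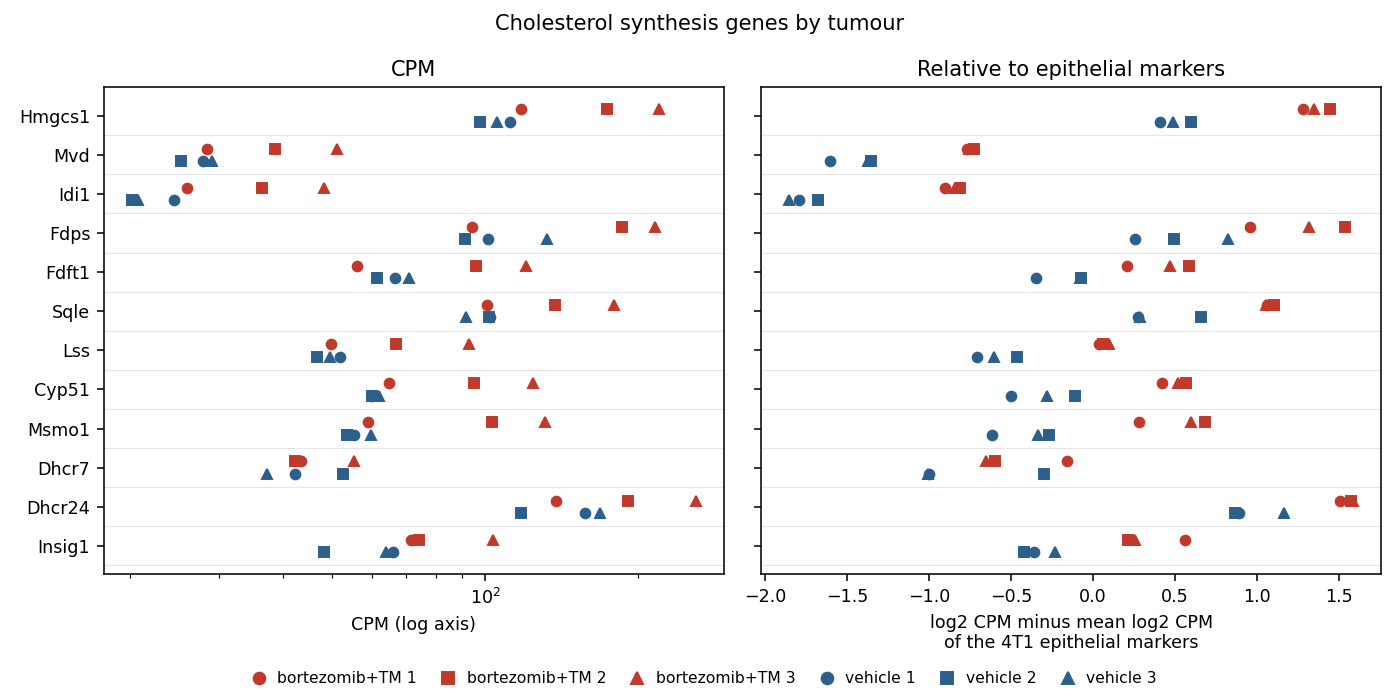
Each row is a cholesterol synthesis gene in the 6 tumours, 12 of the 14 being shown, bortezomib+TM in red above vehicle in blue, as CPM on a log axis on the left and as log2 CPM minus the mean of the epithelial markers on the right. On the left bortezomib+TM tumour 1 sits at or near the vehicle tumours. On the right the 3 treated tumours lie together above the vehicle tumours for each gene shown except Dhcr7.

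Type I interferon response genes, which cells switch on when type I interferon binds its receptor, had positive log2 changes throughout. The median of the 22 was 0.60, and 8 had an unadjusted p under 0.05, against 2.29% of all tested genes. Cmpk2, a nucleotide kinase near the antiviral gene Rsad2, had 25.2, 23.5 and 28.6 CPM in the bortezomib+TM tumours, against 17.4, 10.8 and 19.1 CPM in the vehicle tumours. Usp18, the isopeptidase that removes ISG15, had 26.9, 34.7 and 32.0 CPM in the bortezomib+TM tumours, against 18.8, 9.36 and 25 CPM in the vehicle tumours. In all, 7 of the 22 lay above the vehicle tumours without overlap, against 4.96% of all tested genes.

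Vehicle tumour 2 was the lowest of the 6 tumours for all 22 of these genes. Without it the median of the type I interferon response genes was 0.32, with 5 members at an unadjusted p under 0.05, and without vehicle tumour 3 it was 0.85, with 16 members. Without bortezomib+TM tumour 2 it was 0.61, with 4 members. Averaged over the list the level was 5.50, 5.50 and 5.55 log2 CPM in the bortezomib+TM tumours, against 5.10, 4.21 and 5.34 log2 CPM in the vehicle tumours. The treated tumours were close to each other on this list. From bortezomib+TM tumour 1 to tumour 3 the pan-leukocyte marker level fell and the epithelial marker level rose. Whether the cell mixture set the level of the list was not tested.

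Relative to the epithelial markers the type I interferon list stood at -0.10, -0.50 and -0.889 in the bortezomib+TM tumours, against -1.30, -1.81 and -0.891 in the vehicle tumours. The groups were thus separated only by the narrow gap between bortezomib+TM tumour 3 and vehicle tumour 3. On that scale 11 of the 22 genes lay above the vehicle tumours, against 4.23% of all tested genes. With the 4 keratins alone the groups overlapped, as they did relative to fibroblast, endothelial and pan-leukocyte markers, where the list differed by 0.29, 0.80 and 0.10. Relative to the macrophage markers it differed by 1.33 without overlap. The list was higher and the macrophage markers lower in all 3 bortezomib+TM tumours, so on that scale no overlap was possible. With the fibroblast level as a covariate the median of the list was 0.54 and 2 of the 22 had an unadjusted p under 0.05. In that fit 122 of the 15846 tested genes were higher at such a p. With the macrophage level the median of the list was 0.37, with 0 members, and 258 of all tested genes were higher at such a p.

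Genes induced by interferon gamma had log2 changes in the same direction, and their difference from the type I list was not tested. Of the 13 interferon gamma response genes, all had a positive log2 change, with a median of 0.39. An unadjusted p under 0.05 was found for 2 of them, against 2.29% of all tested genes in that direction. Vehicle tumour 2 was the lowest of the 6 tumours for 12 of them. Without it the median was 0.16, without bortezomib+TM tumour 3 it was 0.20, and without vehicle tumour 1 it was 0.63. With the 4T1 epithelial level as a covariate 9 of the 13 had an unadjusted p under 0.05 and the median was 0.57, beside 0.58 with 12 members for the type I list. In that fit 431 of the 15846 tested genes were higher at such a p. With the macrophage level the median of the interferon gamma response genes was -0.01, with 0 members. Cxcl10, a chemokine for activated T cells, had 34.3, 59.0 and 39.0 CPM in the bortezomib+TM tumours, against 27.6, 20.9 and 35.0 CPM in the vehicle tumours. B2m, the light chain of class I molecules, had 1983, 2230 and 2232 CPM in the bortezomib+TM tumours, against 1872, 1441 and 1917 CPM in the vehicle tumours. Its groups did not overlap, and its log2 change was 0.30 ± 0.16. The heavy chain gene H2-D1 had a log2 change of 0.34 ± 0.15 and H2-K1 0.17 ± 0.16, with the caution that class I heavy chains are close relatives. The immunoproteasome gene Psmb8 had 363, 469 and 523 CPM in the bortezomib+TM tumours, against 449, 284 and 538 CPM in the vehicle tumours. Cd274, which encodes the checkpoint ligand PD-L1, had 87.9, 83.1 and 94.7 CPM in the bortezomib+TM tumours, against 94.5, 43.1 and 72.7 CPM in the vehicle tumours. The 10 checkpoint and exhaustion genes had 0 members at an unadjusted p under 0.05.

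Of 18 inflammatory cytokine genes, 3 had an unadjusted p under 0.05, all chemokines and all higher, against 2.29% of all tested genes. Beside Ccl2, these were Ccl7, its neighbour in function, with a log2 change of 0.82 ± 0.23, and Cxcl3, with 0.99 ± 0.41. Ccl7 had 32.0, 46.6 and 45.2 CPM in the bortezomib+TM tumours, against 24.7, 27.1 and 18.5 CPM in the vehicle tumours. The receptor for CCL2 and CCL7 on monocytes, Ccr2, had 66.4, 64.7 and 49.4 CPM in the bortezomib+TM tumours, against 46.0, 35.0 and 73.8 CPM in the vehicle tumours. Relative to the macrophage markers, Ccl2 stood at -0.77, 0.11 and 0.70 in the bortezomib+TM tumours, against -1.57, -2.08 and -1.82 in the vehicle tumours. Relative to the epithelial markers it stood at 0.17, -0.07 and 0.37 in the bortezomib+TM tumours, against -1.14, -1.12 and -1.28 in the vehicle tumours. The groups were apart on both scales. The macrophage markers were themselves lower in all 3 bortezomib+TM tumours and Ccl2 higher, so on the macrophage scale no overlap was possible. The chemokine Cxcl12 had 87.4, 50.4 and 21.7 CPM in the bortezomib+TM tumours, against 24.5, 8.32 and 31.9 CPM in the vehicle tumours, and its receptor Cxcr4 39.4, 22.4 and 16.9 CPM, against 23.5, 26.7 and 28.4 CPM in the vehicle tumours.

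The transcripts that proteasome inhibition is known to raise in culture had median log2 changes near 0 in the tumours. The 32 proteasome subunit genes had a median log2 change of -0.08, from -0.23 to 0.09, and 0 had an unadjusted p under 0.05. Bortezomib+TM tumour 1 was the lowest of the 6 for 31 of them and for 15 of the 18 heat shock genes. Without single tumours the median ranged from -0.15 to 0.05 for the proteasome genes and from -0.10 to 0.18 for the heat shock genes. The heat shock list averaged 6.59, 7.25 and 7.03 log2 CPM in the bortezomib+TM tumours, against 6.93, 6.96 and 6.96 in the vehicle tumours. Psmb5, the subunit that bortezomib binds, had 28.9, 36.1 and 39.5 CPM in the bortezomib+TM tumours, against 39.5, 38.9 and 44.4 CPM in the vehicle tumours. Hspa1a, an inducible heat shock protein gene, had 9.63, 19.2 and 16.6 CPM in the bortezomib+TM tumours, against 15.9, 11.6 and 15 CPM in the vehicle tumours. Hmox1, heme oxygenase 1, had 85.7, 134 and 169 CPM in the bortezomib+TM tumours, against 130, 107 and 112 CPM in the vehicle tumours. Relative to the epithelial markers Hmox1 did not overlap, at 0.82, 1.06 and 0.97 on the log2 scale in the bortezomib+TM tumours, against 0.62, 0.72 and 0.58 in the vehicle tumours. The median log2 change was 0.04 over 18 heat shock genes, 0.06 over 21 ATF4 targets, 0.04 over 18 NRF2 targets and -0.10 over 12 autophagy receptor and ATG8 genes. Among the 21 ATF4 targets 1 had an unadjusted p under 0.05, higher, against 2.29% of all tested genes. This was the cystine transporter Slc7a11, without overlap, with 38.2, 37.6 and 41.4 CPM in the bortezomib+TM tumours, against 32.8, 14.3 and 28.2 CPM in the vehicle tumours. Relative to the epithelial markers the proteasome and heat shock lists differed by 0.13 and 0.21 with overlap, and 0 of their members lay above all vehicle tumours. On that scale 3 of the 21 ATF4 targets and 4 of the 18 NRF2 targets did so, against 4.23% of all tested genes.

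The same pair of agents was given to MDA-MB-231 cells, a human breast cancer line in culture, at 10 nM bortezomib and 10 µM TM, a different exposure from that of the mice. There edgeR's quasi-likelihood test called 3981 genes higher, 24.1% of 16498 tested, and 4546 lower, 27.6%. Of the 32 proteasome subunit genes matched by symbol, 30 rose with a median log2 change of 1.44, and of 17 heat shock genes 15 rose with a median of 1.51. PSMB5 had a log2 change of 1.30 ± 0.11 in the cells, and HSPA1A 6.21 ± 0.20. Of 19 matched ATF4 targets 17 rose, with a median of 1.81. Of 13 matched cholesterol synthesis genes 11 rose, with a median of 0.80, and of the 16 matched genes of the type I interferon list 9 were called higher and 2 lower, with a median of 0.86. In the tumours the medians were -0.08 for proteasome subunits, 0.04 for heat shock genes, 0.06 for ATF4 targets and 0.51 for cholesterol synthesis. The difference between the systems was not tested, because species, exposure and cell mixture differ with it.

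**Figure D5:**
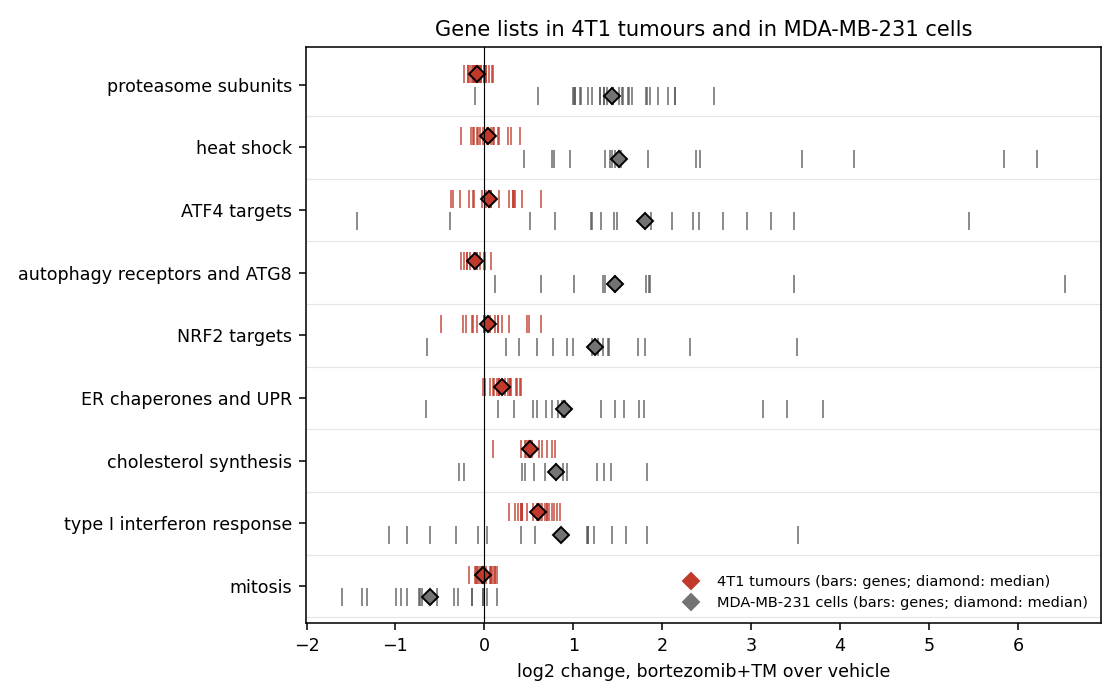
Each row is a gene list, with the log2 change of bortezomib+TM over vehicle of each member as a bar and the list median as a diamond, 4T1 tumours in red above MDA-MB-231 cells in grey. The proteasome, heat shock and ATF4 lists lie near 0 in the tumours and well above it in the cells, whereas cholesterol synthesis and type I interferon response medians lie above 0 in both.

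The genes called in the cells were also followed through the tumour table. The 1263 mouse genes whose human namesakes rose at least 2-fold in the cells had a median log2 change of 0.00 in the tumours, and 2.77% of them had an unadjusted p under 0.05 with a higher level, against 2.29% of all tested genes. The 1665 whose namesakes fell at least 2-fold had a median of -0.01, with 2.52% at an unadjusted p under 0.05 and a lower level, against 2.05%. Among the other 7921 genes matched by symbol 1.64% were higher and 1.81% lower at such a p. The differences between these shares were not tested. Sqstm1, an autophagy receptor with a log2 change of 3.48 in the cells, had 445, 527 and 701 CPM in the bortezomib+TM tumours, against 596, 782 and 577 CPM in the vehicle tumours.

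Endoplasmic reticulum chaperones gave a small difference in 1 direction. Of the 18 genes 17 had a positive log2 change, with a median of 0.20. An unadjusted p under 0.05 was found for 2, both higher, against 2.29% of all tested genes. Vehicle tumour 2 was the lowest of the 6 for 12 of them, and without it the median was 0.11, with 1 member. Set against the epithelial markers, 5 of the 18 lay above all vehicle tumours, against 4.23% of all tested genes. Hsp90b1, which encodes the chaperone GRP94, had 1113, 1314 and 1279 CPM in the bortezomib+TM tumours, against 1043, 944 and 1053 CPM in the vehicle tumours. Dnajb9, a cochaperone induced by misfolded proteins, had 31.4, 30.9 and 34.7 CPM in the bortezomib+TM tumours, against 27.2, 28.0 and 18.5 CPM in the vehicle tumours. Hspa5, the chaperone BiP, had 1602, 2004 and 1931 CPM in the bortezomib+TM tumours, against 1753, 1481 and 1889 CPM in the vehicle tumours, and overlapped.

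Copper handling genes moved in both directions. The 16 tested had log2 changes from -0.70 to 0.66 with a median of -0.10. Without overlap, 3 lay below and 1 above the vehicle tumours, against 5.01% and 4.96% of all tested genes. Atox1, the copper chaperone of the secretory pathway, had 51.1, 53.6 and 51.1 CPM in the bortezomib+TM tumours, against 57.8, 69.6 and 66.9 CPM in the vehicle tumours. It was the 1 of 16 tested copper genes at an unadjusted p under 0.05, against 2.05% of all tested genes in that direction. Slc31a1, the copper importer, had 55.6, 59.1 and 67.0 CPM in the bortezomib+TM tumours, against 55.5, 58.3 and 56.9 CPM in the vehicle tumours. Mt2, a metal-binding metallothionein, had 47.9, 264 and 169 CPM in the bortezomib+TM tumours, against 117, 143 and 198 CPM in the vehicle tumours. All 10 nuclear genes of cytochrome c oxidase, the copper-containing respiratory complex, had a negative log2 change, with a median of -0.18. Cox8a and Cox7b, 2 of the 10, had an unadjusted p under 0.05, against 2.05% of all tested genes in that direction. Their log2 changes were -0.28 ± 0.11 and -0.33 ± 0.12. Bortezomib+TM tumour 1, which had the lowest epithelial level, was the lowest of the 6 for all 10. Without it the median of the cytochrome c oxidase genes was -0.08, and without vehicle tumour 3 it was -0.10, with 0 and 1 members at an unadjusted p under 0.05. Without vehicle tumour 2, or with the T cell level as a covariate, 0 members had such a p. Relative to the epithelial markers the median difference was 0.02 and 0 of the 10 lay below the vehicle tumours.

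Mitosis genes overlapped between the groups. Mki67, a marker of cycling cells, had 221, 272 and 289 CPM in the bortezomib+TM tumours, against 293, 268 and 273 CPM in the vehicle tumours, with a log2 change of -0.09 ± 0.22. Top2a, the topoisomerase of dividing cells, had a log2 change of -0.08 ± 0.26. The 18 mitosis genes had log2 changes from -0.17 to 0.14 with a median of -0.01, and 0 had an unadjusted p under 0.05. The list differed by 0.19 relative to the epithelial markers, with overlap.

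Bortezomib+TM tumours were also compared with the tumours that received bortezomib with AMD3100, which share the bortezomib schedule. edgeR's quasi-likelihood test called 0 genes, or 0% of those tested, with a smallest adjusted p of 0.996, and 454 genes had an unadjusted p under 0.05, or 2.87%. DESeq2 called 4, all higher in the bortezomib+TM tumours, and they are named here after their values were seen: Rnase2a, Ccl24, Car4 and Krt19. Rnase2a, an eosinophil-associated ribonuclease in mice, had 18.4, 12.1 and 30.6 CPM in the bortezomib+TM tumours, against 4.28, 6.24 and 3.17 CPM in the bortezomib+AMD3100 tumours. Ccl24, an eosinophil-attracting chemokine, had 12.8, 7.88 and 8.0 CPM in the bortezomib+TM tumours, against 1.49, 2.76 and 3.05 CPM in the bortezomib+AMD3100 tumours. Both were as high in the vehicle tumours, where Rnase2a had 27.1, 31.7 and 24.6 CPM and Ccl24 had 11.6, 21.4 and 11.7 CPM. Ccl2 had 40.8, 44.8 and 46.6 CPM in the bortezomib+AMD3100 tumours, below each bortezomib+TM tumour, with a log2 difference of 0.79 for bortezomib+TM over bortezomib+AMD3100. The mast cell gene Cpa3 had 15.9, 7.17 and 9.27 CPM in the bortezomib+AMD3100 tumours, and overlapped with the bortezomib+TM tumours. Relative to the epithelial markers the type I interferon list stood at 0.28, -0.18 and 0.11 in the bortezomib+AMD3100 tumours. The bortezomib+TM tumours stood at -0.10, -0.50 and -0.889 on that log2 scale.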

How the data were processed

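Per the labels, poly(A) libraries were sequenced as paired reads of 150 bases on a NovaSeq. Per the submitters' processing notes, featureCounts 2.0.1 was used, with builds GRCm38 and GRCh38; the aligner and the use of strand are not given in the sources used here. The authors deposited raw counts per gene, and they are used as deposited. In R 4.3.3, edgeR 4.0.16 (filterByExpr, trimmed mean of M values, quasi-likelihood F test, 1 coefficient per group) was fitted to all 9 4T1 tumours, which share 1 estimate of spread. Adjusted p-values are Benjamini-Hochberg over all tested genes. DESeq2 1.42.0 and limma 3.58.1 (voom) are alternatives. Log2 CPM uses a prior count of 2. The fit was tested on simulated data. Levels relative to a cell type subtract the mean log2 CPM of its markers. MDA-MB-231 genes were matched by symbol.

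Named genes are the 10 with the smallest p in each direction (at least 5 CPM in the higher group, no overlap, no unnamed or pseudogene symbols), the 2 highest and the 1 with the smallest p of a list, 22 fixed symbols, and others added after their values were seen. The members and lists were chosen with earlier results of these data known. Antibody constant, T cell receptor constant and mitochondrial genes were not analysed here. The values of some genes are not reported here.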

Additional observations from a re-analysis of the deposited data

How the results depend on the processing

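No gene was called in the comparison with vehicle under median-of-ratios scaling, no low-count filter, limma-voom, the compared groups alone, epithelial scaling or a covariate of any of 8 cell types. The exceptions were DESeq2, with 3 genes, and the fits without 1 tumour, with 0 to 1. Against bortezomib+AMD3100, DESeq2 gave 4 genes and every other fit 0. In MDA-MB-231 cells a 2-fold threshold left 4650 of 8527 genes. Same-numbered tumours of the groups had deviations correlated at -0.10, -0.13 and -0.47, so the numbers were not taken as pairs, and the replicate block gave 0 genes in the comparison with vehicle, 0 against bortezomib+AMD3100 and 7725 in MDA-MB-231 cells.

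Of 3234 gene and setting pairs over 147 named genes, 293 had the other sign, 10 of them with an unadjusted p under 0.05 in either fit. With the macrophage covariate the log2 change was -1.71 for Col1a1, -1.26 for Col3a1, -0.0099 for Cxcl10, -0.024 for H2-D1, -2.03 for Mt2 and 0.38 for Mrc1, a part of the covariate itself. It was -0.65 for Ccr7 with the T cell covariate, -0.80 for Cxcr4 with the mast cell covariate and -0.45 for Pecam1 with the 4T1 epithelial covariate. Without single tumours it ranged from -0.34 to 0.28 for Slc7a5. The cause was not tested. The mast cell covariate, the fits without the 3 tumours holding B cell markers, the covariates for list medians and the other marker references were chosen after seeing the data.

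The log2 changes carried a median standard error of 0.21, so a change of that size could not be told from 0 with 3 tumours a group. Mcpt2, with the far larger log2 change of 2.66 ± 0.51, was not called by edgeR either.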
